A study of Mus musculus with 30 samples.

Results

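The T cell receptor V and C segments are the genes whose symbols start with Trav, Trbv, Trgv or Trdv, or name the constant genes Trac, Trbc, Trgc or Trdc. The annotation holds 184 of them, 176 V segments and 8 C segments: 128 Trav, 35 Trbv, 7 Trgv, 6 Trdv, 1 Trac, 2 Trbc, 4 Trgc and 1 Trdc. The RNA-seq files list 112 of the 184 among 34030 named genes. Of these, 110 had a count in some library and 103 passed the filter on low counts, among 17013 genes tested. The other 72 segments have no transcript in those files and were not analysed there, including Trdc, Trgc4 and 57 of the 128 Trav segments. QuantSeq was used for the 8 C segments, of which 5 passed its filter.

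The cells are spleen CD4 T cells of C57BL/6 mice aged 8 weeks. In RNA-seq, 2 libraries held naive CD4+CD62L+CD44-CD25- cells of wild type animals, and the other groups were TH2 cells labelled IL-4BacTg and sorted as CD4+hCD2+ (n = 2) and OTII Tg TFH cells gated as CD4+CD45.2+CXCR5hi PD1+ (n = 2). RNA-seq also held 1 CD4+hCD2+ TH2 library and 1 CD4+CD45.2+CXCR5hi PD1+ TFH2 library, both of IL-4BacTg x OTII Tg mice. The 22 QuantSeq libraries all carry OTII Tg in their labels. They held TH2 cells of IL-4BacTg x OTII Tg mice (CD4+hCD2+, n = 4), PD1+CD45.2+ TFH cells of OTII Tg mice in the gates CXCR5hi (n = 3), CXCR5int (n = 2) and CXCR5lo (n = 3), and TFH2 cells of IL-4BacTg x OTII Tg mice in the same gates (n = 2 each). Bcl6KO cells (Bcl6f/fCd4cre x OTII Tg, CD4+hCD2+, n = 2) and Il4-/- x OTII Tg cells (CD4+, n = 2) completed the set. The OTII group of the RNA-seq comparison is therefore 4 libraries, and the group labelled without OTII is the 2 naive and the 2 IL-4BacTg TH2 libraries. Genotype, gate and differentiation change together between these groups and cannot be told apart. The labels name no immunisation, animal or transfer host, so a p-value reflects only how far these libraries vary, and that variation may be technical. Cd4cre deletes a floxed gene in T cells from the stage at which Cd4 is first expressed.

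An alpha-beta T cell receptor is assembled in the thymus by joining 1 V to 1 J segment in the alpha locus, and V, D and J segments in the beta locus, and the joined exon is spliced to a constant gene. A polyclonal population uses many V segments, while a transgenic receptor that was already rearranged largely prevents further beta joining, a process called allelic exclusion, and leaves alpha joining less tightly shut. OTII is such a transgene. Its receptor recognises an ovalbumin peptide on MHC class II and is built from Vα2, the protein name of the Trav14 family, and Vβ5, that of the Trbv12 pair. The gamma and delta segments form the receptor of another T cell lineage, and the delta locus lies inside the alpha locus. In bulk samples, fewer cells using a segment and less of its RNA per cell cannot be told apart.

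RNA-seq libraries held 36.05 to 107.4 M transcript counts (M stands for mega, as in megabase) and QuantSeq libraries 1.84 to 4.44 M gene counts. Levels are in counts per M counts (CPM), where the divisor is not that total: in RNA-seq it is the total of the tested genes at 1 transcript per gene, scaled by TMM, which came to 12.9 M in the TFH2 library and up to 35.3 M in naive library 2. In QuantSeq the scaled totals were 1.85 to 4.58 M. The 6 CD4 T cell markers summed to 3319 to 4177 CPM in the RNA-seq libraries, and none was at 0 in any group. The summed 7 B cell markers stood at 374 to 391 CPM in naive, 156 to 171 in IL-4BacTg TH2 and 269 to 275 in TFH libraries, against 781 in the IL-4BacTg x OTII TH2 library and 783 in the TFH2 library. The 7 CD8 and NK cell markers summed to 24.0 to 81.2 CPM. The IL-4BacTg x OTII TH2 library also held the highest sums of 7 myeloid markers (162 CPM against 17.8 to 26.5 elsewhere) and of 5 erythroid markers (195 CPM against 7.62 to 45.1). Their part in the results was not tested.

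One fact touches every RNA-seq comparison. The 2 TH2 libraries labelled IL-4BacTg, with no OTII in the label, had the receptor profile of the libraries labelled OTII and not that of the naive libraries. Trav14 made up 99.3% and 99.0% of their Trav counts, and Trbv12-2 71.1% and 69.9% of their Trbv counts. They are kept under their label. Shares, effective numbers, summed levels and counts of called segments are given for OTII libraries against all those labelled without OTII and against the naive libraries alone, and most single segments only against naive ones.

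The segments that carry this profile are shown first. Trav14 has 5 copies listed in the RNA-seq files, all on chromosome 14 (GENCODE M21 transcripts, GRCm38, plus strand). The windows cover the same 120 bases of the V exon in each copy, and capitals mark the positions where the copies differ, so that a reader can see how few bases separate them. Trav14-3 lies at chr14:53763458-53763577, Trav14d-2 at chr14:52948933-52949052, Trav14d-3-dv8 at chr14:53078809-53078928, Trav14n-2 at chr14:53259943-53260062 and Trav14n-3 at chr14:53370339-53370458.
Trav14-3: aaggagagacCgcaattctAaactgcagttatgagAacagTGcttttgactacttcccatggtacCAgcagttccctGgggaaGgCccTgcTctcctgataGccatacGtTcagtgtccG
Trav14n-3: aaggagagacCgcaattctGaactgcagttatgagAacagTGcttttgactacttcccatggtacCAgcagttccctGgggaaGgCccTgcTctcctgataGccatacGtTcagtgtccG
Trav14d-3-dv8: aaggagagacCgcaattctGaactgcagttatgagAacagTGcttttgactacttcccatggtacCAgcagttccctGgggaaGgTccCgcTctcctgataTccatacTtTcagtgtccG
Trav14d-2 and Trav14n-2: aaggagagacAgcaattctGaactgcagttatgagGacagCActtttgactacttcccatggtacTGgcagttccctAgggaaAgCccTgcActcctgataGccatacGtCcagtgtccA
Over 276 aligned bases, 23 positions differ among the 5 copies. Trav14-3 was 98.2% identical to Trav14n-3, 97.1% to Trav14d-3-dv8 and 94.9% to Trav14d-2 and Trav14n-2, and the last pair was identical throughout. Trav14-3 and Trav14n-3 share a run of 152 bases without a difference, so counts of single copies are uncertain and the sum over the 5 listed copies is the value to read. Trav14-1, Trav14-2, Trav14d-1 and Trav14n-1 have no transcript in the RNA-seq files, so all RNA-seq values of the Trav14 family leave them out.

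The Vβ5 pair is less alike. Trbv12-2 (chr6:41119136-41119255, exon 2) and Trbv12-1 (chr6:41113839-41113958, exon 2) differ at 22 of the 120 bases shown (GENCODE M21, GRCm38, plus strand), again in capitals.
Trbv12-2: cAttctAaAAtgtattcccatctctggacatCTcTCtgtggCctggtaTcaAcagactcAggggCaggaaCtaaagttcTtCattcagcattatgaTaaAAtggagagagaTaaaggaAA
Trbv12-1: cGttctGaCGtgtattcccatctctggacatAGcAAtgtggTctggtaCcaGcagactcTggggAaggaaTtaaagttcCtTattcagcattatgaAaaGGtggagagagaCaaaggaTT
They were 88.3% identical over 385 aligned bases, and their longest shared run was 44 bases. RefSeq gives Tcrb-V5.1 as another name of Trbv12-2 and Tcrb-V5.2 of Trbv12-1.

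In the alpha chain, a single V family took nearly all counts in every library except the naive ones. Trav14 made up 18.1% and 16.8% of Trav counts in the naive libraries. It made up 99.3% and 99.0% in the TH2 libraries labelled IL-4BacTg. It made up 96.5% and 96.1% in the TFH libraries, 97.6% in the IL-4BacTg x OTII TH2 library and 99.5% in the TFH2 library. The 6 differentiated libraries lie between 96.1 and 99.5%, far from both naive libraries. Counting error was small: the 95% Wilson interval was 17.4 to 18.7% in naive library 1 (2624 of 14540 counts) and 99.24 to 99.28% in IL-4BacTg TH2 library 1. Such intervals cover counting error only, since reads are not independent molecules.

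By label, the Trav14 share was 97.4% ± 1.54 (SD, n = 4) in OTII libraries and 58.3% ± 47.2 (n = 4) in those labelled without OTII. The difference of 39.1 percentage points did not pass an exact 2-sided permutation test over 70 regroupings (p = 0.371, adjusted over 7 such tests 0.5), and the second group spans 16.8 to 99.3%. Against the naive libraries alone (17.4% ± 0.902, n = 2) the difference was 80.0 points. All 4 OTII libraries lay above both naive ones, and the exact permutation p of 0.133 (adjusted 0.156) is the smallest that 15 regroupings allow.

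**Figure D1:**
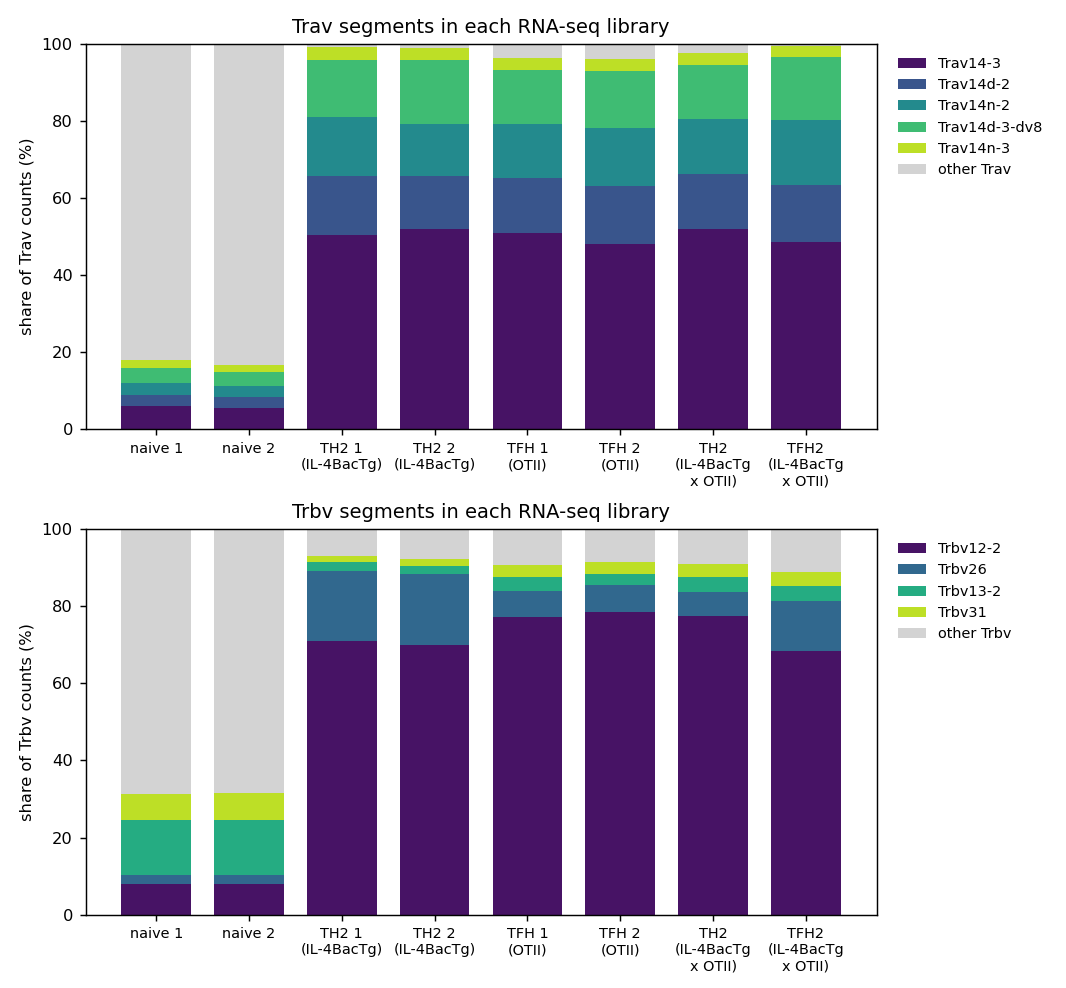
Share of Trav counts (top) and Trbv counts (bottom) taken by the leading V segments, in percent, with 1 stacked bar for each of the 8 RNA-seq libraries. The naive bars are divided among many segments (Trav14 at 18.1 and 16.8%), and the Trav14 and Trbv12-2 blocks fill most of the other 6, the TH2 bars labelled IL-4BacTg included.

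Within the Trav14 family, Trav14-3 had the highest and Trav14n-3 the lowest share in every library, while the order of the other 3 copies varied. Trav14-3 took 50.5 and 51.9% of Trav counts in IL-4BacTg TH2, 51.1 and 48.2% in TFH, 52.0% in IL-4BacTg x OTII TH2 and 48.6% in TFH2 cells, against 5.98 and 5.60% in naive cells. Trav14d-2, Trav14n-2 and Trav14d-3-dv8 each took 13.6 to 16.9% in the 6 differentiated libraries, and Trav14n-3 took 2.84 to 3.30%. The pair Trav14d-2 and Trav14n-2, identical over the whole listed length, had nearly equal shares in every library but TFH2 (14.7 and 16.9%). The sources used here do not say how reads that match several copies were counted.

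The naive libraries spread their alpha counts widely. After Trav14-3, the most used segments by mean share were Trav4n-4 (4.87%), Trav4-4-dv10 (4.27%) and Trav4d-4 (3.93%), 3 members of the Trav4 family, and Trav9-4 reached 3.23%. In naive cells 42 and 40 Trav segments each passed 1% of Trav counts, and in each of the other 6 libraries exactly 5 did, the Trav14 copies. The effective number of Trav segments, the inverse of the summed squared shares, which equals the number of segments when all are used alike, was 40.7 and 40.5 in naive libraries. It was 3.08 and 2.98 in IL-4BacTg TH2, 3.11 and 3.34 in TFH, 3.02 in IL-4BacTg x OTII TH2 and 3.18 in TFH2. The difference was -18.7 between OTII libraries and those labelled without OTII (exact permutation p = 0.4, adjusted 0.5) and -37.4 between OTII and naive libraries (exact permutation p = 0.133, adjusted 0.156). The effective number counts each listed copy singly, in Trav14 and in other families. It therefore depends on how reads were divided among copies. Outside naive cells these are the nearly identical Trav14 copies. In naive cells they include pairs such as Trav3d-3 and Trav3n-3, with 295 and 315 counts in naive library 1. Segments other than Trav14 did not vanish from the transcriptome: 64 to 69 of the 71 listed Trav segments had a count in every library.

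The levels show that the change in share was mostly a gain of Trav14 RNA. Summed Trav14 stood at 84.4 and 78.6 CPM in naive cells, 22308 and 17391 in IL-4BacTg TH2, 8732 and 8256 in TFH, 7466 in IL-4BacTg x OTII TH2 and 15794 in TFH2 cells. All other Trav segments together stood at 383 and 390 CPM in naive cells, 166 and 176 in IL-4BacTg TH2, 321 and 336 in TFH, 184 in IL-4BacTg x OTII TH2 and 77.0 in TFH2 cells. Thus the TFH libraries held nearly as much RNA of other Trav segments as naive cells did, and the TFH2 library held the least. On the log2 scale the summed Trav level was 8.87 in both naive libraries, 14.5 and 14.1 in IL-4BacTg TH2, 13.1 and 13.1 in TFH, 12.9 in IL-4BacTg x OTII TH2 and 14.0 in TFH2. OTII libraries were 1.69 log2 units above those labelled without OTII (exact permutation p = 0.429, adjusted 0.5) and 4.40 above naive libraries (exact permutation p = 0.133).

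Gene by gene, edgeR's quasi-likelihood test was run on all 17013 genes with Benjamini-Hochberg adjustment, and a call is an adjusted p under 0.05. Against libraries labelled without OTII, 16 of 103 segments were higher in OTII libraries, beside 29.4% of all genes, and 48 were lower, beside 31.5% of all genes. The median log2 difference over the 103 was -0.58, or -0.46 with the 8 segments that have no count in some group set to 3 counts there, and over all genes -0.01. The counts of this contrast rest on 1 library: without the TFH2 library 31 were higher (29.9% of all genes) and 34 lower (30.0% of all genes), near the background. With the 2 label groups as the only groups, no segment and no gene was called by edgeR, with 11 segments at an unadjusted p under 0.05. In the OTII against naive contrast 18 were higher (33.1% of all genes) and 64 lower (36.1% of all genes), with a median of -1.18 (-1.16 with those segments at 3 counts). In IL-4BacTg TH2 against naive cells 18 were higher (33.9% of all genes) and 65 lower (31.9% of all genes), with a median of -1.11. In both contrasts with naive cells the share of segments called lower stood above that of all genes, and the share called higher below it. These contrasts share libraries and are given side by side only.

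All 5 Trav14 copies were higher in both contrasts with naive cells. Trav14-3 stood at 10238 CPM ± 1579 (SD, n = 2) in IL-4BacTg TH2 and 27.1 ± 1.23 in naive cells, a log2 difference of 8.56 ± 0.17 (SE, edgeR adjusted p = 1.05e-11). In OTII libraries it stood at 5114 CPM ± 1759 (n = 4), 7.56 ± 0.16 above naive (edgeR adjusted p = 9.60e-12). The smallest of the 5 differences was that of Trav14n-3, at 6.11 in TH2 and 5.04 in OTII cells. The 5 calls of OTII against libraries labelled without OTII rest on the naive libraries. There the arithmetic means of Trav14-3 were 5114 and 5132 CPM, while the fitted difference, which averages group logs, was 3.28 ± 0.09.

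**Figure D2:**
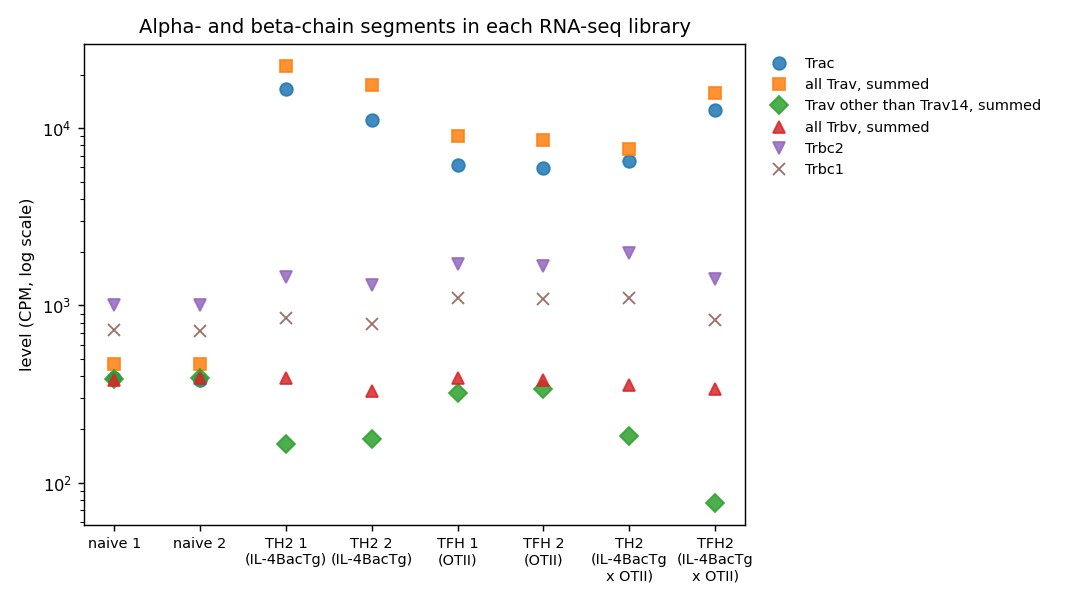
Level of alpha and beta segments in the 8 RNA-seq libraries, in CPM on a log axis, 1 symbol for each gene or sum in each library. Summed Trav and Trac stand far higher in the other 6 libraries than in the naive ones, Trbc1 and Trbc2 change little, and the summed Trbv level stays between 328 and 391 CPM.

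Of the other 63 tested Trav segments, most that were called were lower. In IL-4BacTg TH2 against naive cells 45 were lower and 1 higher, and the 45 ranged from -0.40 (Trav12-1) to -2.66 (Trav6-2) on the log2 scale. None of the 45 showed overlap between the 2 groups. Neither did any of the 5427 genes called lower there (31.9% of all genes), so the lack of overlap adds nothing to the call. In OTII against naive cells 45 were lower and 2 higher, Trav20 and Trav8-2. Of those 45, 32 showed no overlap, beside 3521 of the 6141 genes called lower there (20.7% and 36.1% of all genes). Trav4n-4, the leading naive segment after Trav14-3, stood at 22.8 CPM ± 0.804 in naive, 9.66 ± 0.815 in IL-4BacTg TH2 and 8.97 ± 5.27 in OTII libraries, a log2 fall of 1.24 ± 0.11 (edgeR adjusted p = 2.18e-06) and 1.88 ± 0.11 (edgeR adjusted p = 4.23e-08).

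One family split the OTII libraries. Trav3n-3 had 315 and 375 counts in naive, 128 and 129 in IL-4BacTg TH2 and 270 and 185 in TFH libraries, but 1 in the IL-4BacTg x OTII TH2 library and 0 in the TFH2 library. Its copy Trav3d-3 followed with 295, 358, 119, 119, 256 and 171 counts in the first 6 libraries and 1 and 0 in the last pair. Trav3-1 had 59 to 165 counts in the first 6 and 4 and 3 in the last pair, and Trav3-4 had 93 to 187 and then 11 and 2. Both libraries low in this family are the ones labelled with both transgenes, and 0 counts in the TFH2 library allows up to 3. These 4 segments were chosen after their values were seen. Trav7n-4 split the TFH replicates, with 57 counts in TFH library 1 and 573 in TFH library 2, against 208 and 232 in naive and 13 to 41 in the other 4 libraries. As a share of Trav counts it was highest in naive cells (1.43 and 1.40%), with 0.343% in TFH library 2.

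Segments of invariant T cells gave no large signal. Trav11, the V segment of invariant NKT cells, had 43 and 64 counts in naive, 34 and 42 in IL-4BacTg TH2, 72 and 70 in TFH, 29 in IL-4BacTg x OTII TH2 and 12 in TFH2 libraries. Its level was 1.38 and 1.81 CPM in naive, 1.58 and 1.70 in IL-4BacTg TH2 and 2.65 and 3.60 in TFH libraries. It was 1.86 CPM in the IL-4BacTg x OTII TH2 library and 0.93 in the TFH2 library, so the TFH libraries were highest. It did not pass the test in TH2 against naive cells (log2 0.04 ± 0.27, edgeR adjusted p = 0.927) or in OTII against naive cells (0.13 ± 0.26, edgeR adjusted p = 0.688). Its copy Trav11d gave nearly the same counts, 12 to 72. The 5 markers that NKT cells share with activated cells summed to 66.7 to 67.5 CPM in naive cells and 112 to 558 in the others. Trav1, the V segment of mucosal-associated invariant T cells, had 41 and 50 counts in naive libraries, 14 to 29 in IL-4BacTg TH2 and TFH libraries, 6 in the IL-4BacTg x OTII TH2 library and 0 in the TFH2 library. In CPM that is 1.32 and 1.42 in naive, 0.792 and 0.607 in IL-4BacTg TH2, 1.07 and 0.721 in TFH, 0.384 in IL-4BacTg x OTII TH2 and 0 in TFH2 libraries. It was called lower in OTII than in naive cells (edgeR adjusted p = 2.67e-04), with no fold given since the TFH2 group is at 0. The call against libraries labelled without OTII was lost without the TFH2 library (-0.72, edgeR adjusted p = 0.0860). In IL-4BacTg TH2 the log2 difference from naive cells was -0.97 ± 0.35 (edgeR adjusted p = 0.0303), a call lost with DESeq2 (adjusted p = 0.307), with summed transcripts (edgeR adjusted p = 0.0623) and without naive library 1, naive library 2 or TH2 library 2 (edgeR adjusted p = 0.0749, 0.117 and 0.125).

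In the beta chain, composition changed and the summed level stayed in a narrow range. Summed Trbv stood at 381 and 389 CPM in naive, 390 and 328 in IL-4BacTg TH2, 391 and 380 in TFH, 354 in IL-4BacTg x OTII TH2 and 338 in TFH2 cells. The groups overlap, and the log2 difference of OTII libraries from those labelled without OTII was -0.02 (exact permutation p = 0.886), or 0.04 with plain library sizes. Against naive libraries the difference was -0.07 (exact permutation p = 0.533).

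Within this total, the Vβ5 pair took 10.0 and 9.84% of Trbv counts in naive libraries. It took 71.3 and 70.2% in IL-4BacTg TH2, 77.8 and 79.3% in TFH, 78.1% in IL-4BacTg x OTII TH2 and 68.8% in TFH2 libraries. The TFH2 library, with the fewest Trbv counts (4349), had a Wilson interval of 67.4 to 70.2%, outside those of the other 3 OTII libraries. By label the share was 76.0% ± 4.85 (n = 4) in OTII libraries and 40.3% ± 35.1 (n = 4) in those labelled without OTII, a difference of 35.7 points (exact permutation p = 0.0857, adjusted 0.3). Against naive libraries (9.92% ± 0.111, n = 2) it was 66.1 points, with all 4 above both naive ones (exact permutation p = 0.133, adjusted 0.156).

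Nearly all of the Vβ5 gain was Trbv12-2. It stood at 30.1 and 30.9 CPM in naive, 277 and 229 in IL-4BacTg TH2, 303 and 299 in TFH, 275 in IL-4BacTg x OTII TH2 and 231 in TFH2 libraries. The fitted difference was 3.05 ± 0.10 in IL-4BacTg TH2 against naive (edgeR adjusted p = 3.45e-10) and 3.13 ± 0.10 in OTII against naive (edgeR adjusted p = 2.17e-10). Its neighbour Trbv12-1 went the other way, from 2.10 and 1.91% of Trbv counts in naive cells to 0.275 to 0.663% in the others, and fell by 2.94 ± 0.22 in TH2 (edgeR adjusted p = 3.62e-07) and by 2.00 ± 0.18 in OTII cells (edgeR adjusted p = 1.70e-06) on the log2 scale.

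Trbv26 was the only other Trbv segment that rose in either contrast with naive cells. It took 2.34 and 2.23% of Trbv counts in naive, 18.2 and 18.6% in IL-4BacTg TH2, 6.62 and 6.88% in TFH, 6.34% in IL-4BacTg x OTII TH2 and 13.1% in TFH2 libraries. It did not follow Trbv12-2: the IL-4BacTg TH2 libraries were highest in Trbv26 and the TFH2 library came next, while TFH cells were highest in Trbv12-2. Its level was 66.0 CPM ± 6.90 in IL-4BacTg TH2, 29.7 ± 9.90 in OTII and 8.80 ± 0.153 in naive libraries, a log2 difference of 2.91 ± 0.10 (edgeR adjusted p = 3.72e-10) and 1.75 ± 0.09 (edgeR adjusted p = 1.98e-08). Its longest run shared with any other Trbv segment, Trbv23, was 17 bases. Against libraries labelled without OTII it was 0.30 ± 0.07 higher (edgeR adjusted p = 0.00336), and without the TFH2 library 0.0048 (edgeR adjusted p = 0.975).

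The remaining 19 tested Trbv segments were all lower in both contrasts with naive cells. In IL-4BacTg TH2 they ranged from -4.40 (Trbv13-1) to -2.10 (Trbv31). No overlap was seen in all 19, and also in all 5427 genes called lower there (31.9% of all genes). In OTII cells they ranged from -3.99 (Trbv23) to -1.13 (Trbv31). There 18 showed no overlap, beside 3521 of the 6141 genes called lower (20.7% and 36.1% of all genes). Trbv13-2, the leading naive segment, took 14.3 and 14.5% of Trbv counts in naive, 2.14 and 1.97% in IL-4BacTg TH2, 3.64 and 2.99% in TFH, 3.65% in IL-4BacTg x OTII TH2 and 3.82% in TFH2 libraries. Its log2 difference was -2.91 ± 0.14 in TH2 (edgeR adjusted p = 6.98e-09) and -2.10 ± 0.11 in OTII cells (edgeR adjusted p = 2.14e-08). Trbv1 took 8.34% and Trbv16 7.63% in naive cells on average, and neither passed 1.73% in any other library. Trbv31, the segment that lies beyond the beta constant genes, was least reduced and kept 1.61 to 3.58%. Summed over all Trbv segments but Trbv12-2 and Trbv26, the level was 342 and 350 CPM in naive and 37.7 to 62.8 CPM in the other 6 libraries.

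**Figure D3:**
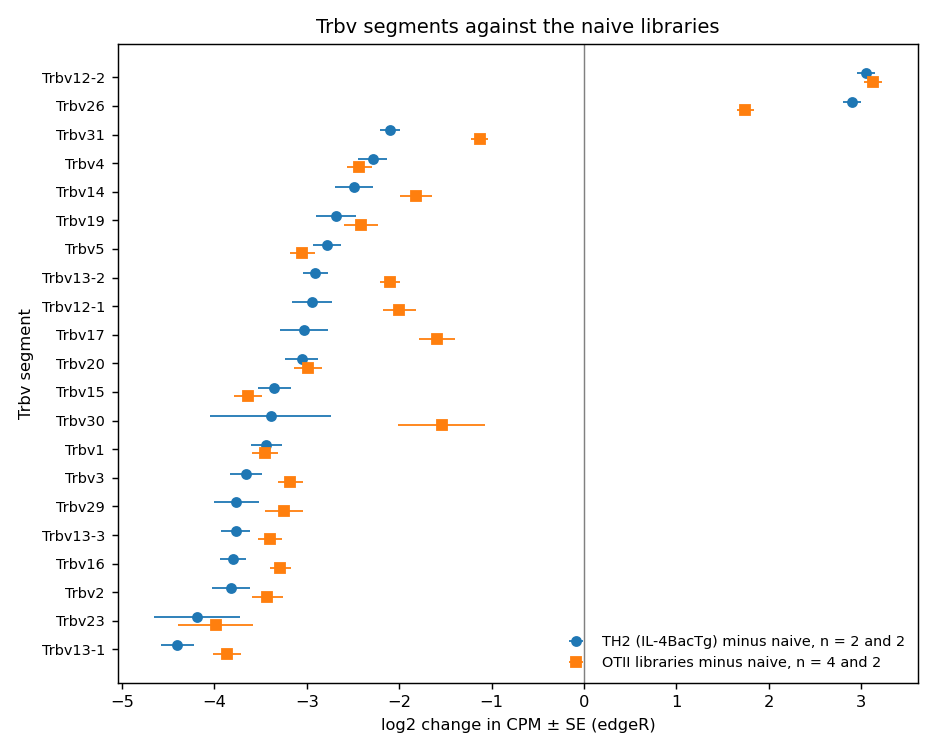
Log2 difference of each tested Trbv segment from naive cells, with its standard error, for IL-4BacTg TH2 and for OTII libraries (edgeR, 21 segments). Trbv12-2 (3.05 and 3.13) and Trbv26 (2.91 and 1.75) lie above 0 and the other 19 below it in both.

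The effective number of Trbv segments was 14.4 in both naive libraries, 1.86 and 1.91 in IL-4BacTg TH2, 1.65 and 1.6 in TFH, 1.65 in IL-4BacTg x OTII TH2 and 2.05 in TFH2 libraries. The difference was -6.405 between OTII libraries and those labelled without OTII (exact permutation p = 0.0857, adjusted 0.3) and -12.7 between OTII and naive ones (exact permutation p = 0.133, adjusted 0.156). With 19 segments over 1% of Trbv counts in each naive library and 4 to 7 in the others, the segment counts ran the same way.

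J segments, which are not V or C genes and are given only as a description, pointed to single segments too. Traj31 and Trbj2-4 led the 6 differentiated libraries. They are printed because they are the most counted J segments of the alpha and beta chains there, with the codons of the Phe-Gly-X-Gly motif of J segments in capitals (GENCODE M21, GRCm38, plus strand, chr14:54187895-54187951 and chr6:41543362-41543410).
Traj31: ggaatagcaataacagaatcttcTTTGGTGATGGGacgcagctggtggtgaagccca
Trbj2-4: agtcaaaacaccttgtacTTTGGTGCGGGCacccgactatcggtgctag
Traj31 took 4.99 and 5.52% of the counts of 59 Traj segments in naive, 89.4 and 84.7% in IL-4BacTg TH2, 78.4 and 74.4% in TFH, 87.0% in IL-4BacTg x OTII TH2 and 93.3% in TFH2 libraries. Traj23 came next in OTII libraries with 3.31 to 10.2%, followed by Traj48 with 1.84 to 3.22%. In naive cells Traj15 (4.59% on average) and Traj27 (4.40%) followed Traj31. Trbj2-4 took 6.77 and 6.50% of the counts of 14 Trbj segments in naive, 44.1 and 41.9% in IL-4BacTg TH2, 37.5 and 37.2% in TFH, 37.1% in IL-4BacTg x OTII TH2 and 40.2% in TFH2 libraries. Trbj2-7, which led naive cells at 17.5% in both, held 5.88 to 9.49% in the others, while Trbj2-1 held 7.08 to 14.1% beside 12.4 and 12.0% in naive cells. Trbj1-2 held 8.05 to 9.03% in OTII libraries, and Trbj2-5 9.78 and 10.4% in naive ones. Trbj counts were thus less concentrated than Trbv counts. Which V and J were joined in a molecule cannot be read from these counts.

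The constant genes moved unequally. Trac, the alpha constant gene (chr14:54220521-54224206, GRCm38), stood at 392 and 380 CPM in naive, 16596 and 11147 in IL-4BacTg TH2, 6211 and 5995 in TFH, 6562 in IL-4BacTg x OTII TH2 and 12675 in TFH2 libraries. The order of the libraries is nearly that of Trav14, with IL-4BacTg TH2 and TFH2 highest. Trac was 5.17 ± 0.19 log2 units higher in IL-4BacTg TH2 (edgeR adjusted p = 6.73e-09) and 4.37 ± 0.18 in OTII libraries (edgeR adjusted p = 1.63e-08) than in naive ones, and the groups did not overlap.

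Trbc1 and Trbc2, the beta constant genes (chr6:41538218-41539881 and chr6:41546730-41548352), changed far less. Trbc1 stood at 729 and 719 CPM in naive, 851 and 782 in IL-4BacTg TH2, 1105 and 1081 in TFH, 1101 in IL-4BacTg x OTII TH2 and 823 in TFH2 libraries. Trbc2 stood at 1012 CPM in both naive libraries, 1453 and 1299 in IL-4BacTg TH2, 1717 and 1673 in TFH, 1965 in IL-4BacTg x OTII TH2 and 1410 in TFH2 libraries. In OTII against naive cells Trbc1 rose by 0.46 ± 0.07 (edgeR adjusted p = 1.84e-04) and Trbc2 by 0.73 ± 0.08 (edgeR adjusted p = 9.31e-06) on the log2 scale. In IL-4BacTg TH2 Trbc2 rose by 0.44 ± 0.09 (edgeR adjusted p = 8.74e-04), while Trbc1 did not pass the test (0.17 ± 0.08, edgeR adjusted p = 0.0815). Beside the 5.17 and 4.37 of Trac in the same contrasts, these are small.

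Per kb of transcript in RNA-seq, Trac stood below the beta constant genes in naive cells and above them elsewhere. QuantSeq, where all libraries are labelled OTII, had fewer Trac than Trbc1 plus Trbc2 counts. There the ratio of counts, not per kb, was 0.184 to 0.358 in TH2, 0.119 to 0.264 in TFH and 0.135 to 0.345 in TFH2 libraries. QuantSeq reads only 3' ends, and why the assays differ was not tested. In RNA-seq the ratio of Trac counts per kb to summed Trbc1 and Trbc2 counts per kb was 0.329 and 0.321 in naive and 10.7 and 7.93 in IL-4BacTg TH2 libraries. It was 3.24 and 3.21 in TFH, 3.18 in IL-4BacTg x OTII TH2 and 8.42 in TFH2 libraries. The RNA-seq Trbc1 share of the 2 beta constant genes, which share much of their sequence, was 41.9 and 41.5% in naive, 36.9 and 37.6% in IL-4BacTg TH2, 39.2% in both TFH, 35.9% in IL-4BacTg x OTII TH2 and 36.9% in TFH2 libraries. The difference in points was -1.69 between OTII libraries and those labelled without OTII (exact permutation p = 0.286, adjusted 0.5) and -3.91 between OTII and naive ones (exact permutation p = 0.133, adjusted 0.156).

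Gamma segments were counted in some of these CD4 T cell libraries. The 7 Trgv segments, variable genes of the gamma chain on chromosome 13, had 5 and 3 counts in naive, 362 and 386 in IL-4BacTg TH2, 4 and 0 in TFH, 22 in IL-4BacTg x OTII TH2 and 254 in TFH2 libraries. The 3 listed Trgc genes had 19 and 11, 1345 and 1158, 5 and 1, 59 and 672 counts in the same libraries. The IL-4BacTg TH2 and TFH2 libraries were high, the IL-4BacTg x OTII TH2 library was in between, and the TFH libraries were as low as naive ones. The signal therefore did not follow the OTII label, nor the TH2 label.

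Trgv2 and Trgc2 carried most of it in the IL-4BacTg TH2 libraries and a smaller share in the TFH2 library. Trgc2 (chr13:19304649-19307551, minus strand) had 928 and 849 counts in IL-4BacTg TH2 and 336 in TFH2, against 43 in IL-4BacTg x OTII TH2, 5 and 1 in naive and 2 and 0 in TFH libraries. In CPM it was 43.2 and 34.3 in IL-4BacTg TH2 and 26.1 in TFH2. Trgv2 (chr13:19336573-19337167, minus strand) had 314 and 339 counts in IL-4BacTg TH2, 124 in TFH2 and 20 in IL-4BacTg x OTII TH2 libraries, 1 in naive library 1 and 0 in naive library 2 and both TFH libraries, where 0 allows up to 3 counts. The libraries differed in their mix: the TFH2 library had 58 Trgv4, 46 Trgv1 and 24 Trgv3 counts and 232 Trgc1 counts, where the IL-4BacTg TH2 libraries had 4 and 5 Trgv4, 26 and 20 Trgv1, 14 and 16 Trgv3, and 243 and 172 Trgc1 counts.

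In IL-4BacTg TH2 against naive cells all 4 tested Trgv and all 3 tested Trgc genes were higher (33.9% of all genes), among them Trgc2 (edgeR adjusted p = 1.61e-08), Trgv2 (edgeR adjusted p = 7.72e-09), Trgc3 (edgeR adjusted p = 1.13e-07) and Trgv4 (edgeR adjusted p = 0.0455). The Trgv4 call was lost with DESeq2 (adjusted p = 0.118), with summed transcripts (edgeR adjusted p = 0.0681) and without naive library 1, TH2 library 1 or TH2 library 2 (edgeR adjusted p = 0.182, 0.0690 and 0.128). With 0 to 5 naive counts for most of them, no fold is given. Trgc1, with 10 and 7 naive counts, was 5.12 ± 0.33 log2 units higher (edgeR adjusted p = 9.42e-08). In OTII against libraries labelled without OTII none of the 7 was called, beside 29.4% of all genes higher and 31.5% lower. In OTII against naive cells the 3 Trgc genes were called higher (33.1% of all genes) although the groups overlap. Nearly all their OTII counts were in the TFH2 and IL-4BacTg x OTII TH2 libraries.

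Other markers of gamma-delta T cells gave no common order of the libraries. Cd163l1 stood at 0.579 and 0.623 CPM in naive, 2.10 and 1.66 in IL-4BacTg TH2, 2.21 and 2.73 in TFH, 0.448 in IL-4BacTg x OTII TH2 and 0.778 in TFH2 libraries, so the TFH libraries, low in gamma counts, were highest. Sox13, a transcription factor of that lineage, stood at 0 to 0.256 CPM in 7 libraries and at 0.778 in the TFH2 library. Blk and Il23r were at 0 in both IL-4BacTg TH2 libraries, and Il23r in the TFH2 library. The highest Blk level, 6.78 CPM, was in the IL-4BacTg x OTII TH2 library, which also had one of the 2 highest sums of B cell markers, and Blk is a kinase of B cells too. Maf, which follicular and TH2 cells also express, stood at 12.1 and 9.20 CPM in naive, 173 and 176 in IL-4BacTg TH2, 1119 and 1079 in TFH, 357 in IL-4BacTg x OTII TH2 and 148 in TFH2 libraries. The part of gamma-delta T cells in the gamma counts was not tested.

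**Figure D4:**
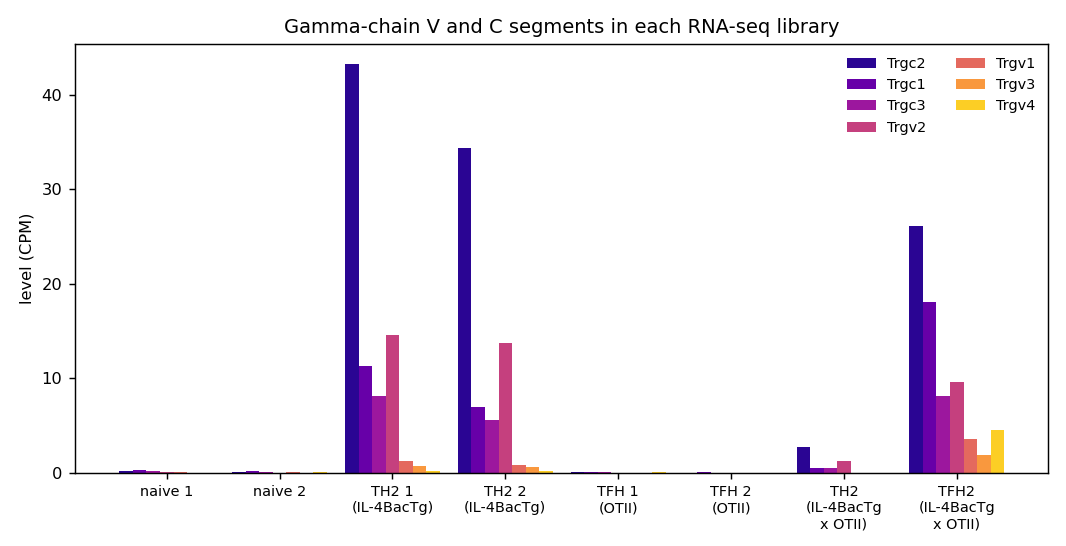
Level of the gamma segments in the 8 RNA-seq libraries, in CPM from 0, 1 bar for each of 7 segments in each library. The IL-4BacTg TH2 libraries (summed Trgc 62.6 and 46.8 CPM) and the TFH2 library (52.3 CPM) stand high, the IL-4BacTg x OTII TH2 library at 3.78 CPM, and naive and TFH libraries under 1 CPM.

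Delta V segments showed a different picture. Summed Trdv stood at 4.47 and 4.02 CPM in naive, 2.56 and 3.20 in IL-4BacTg TH2, 6.22 and 4.99 in TFH, 7.81 in IL-4BacTg x OTII TH2 and 8.87 in TFH2 libraries, so the IL-4BacTg TH2 libraries, high in gamma counts, were lowest here. All 4 tested Trdv segments were higher in OTII libraries than in those labelled without OTII, beside 29.4% of all genes: Trdv1 by 0.84 ± 0.19 (edgeR adjusted p = 0.00321), Trdv2-2 by 0.70 ± 0.23 (edgeR adjusted p = 0.0193), Trdv5 by 1.94 ± 0.31 (edgeR adjusted p = 2.73e-04) and Trdv2-1. Trdv2-1 had 4, 1, 0 and 1 counts in the latter and 5, 2, 15 and 22 in OTII libraries. DESeq2 did not call Trdv1 (adjusted p = 0.0579) or Trdv2-2 (adjusted p = 0.158), and the Trdv2-2 call was also lost without TFH library 1 (edgeR adjusted p = 0.0532) or naive library 2 (edgeR adjusted p = 0.0546). Against naive cells 3 of the 4 were higher (33.1% of all genes), but Trdv2-2 was at -0.26 ± 0.24 (edgeR adjusted p = 0.37), since its level fell in the IL-4BacTg TH2 libraries (-1.91 ± 0.31, edgeR adjusted p = 2.14e-04). Trdv1 stood at 1.51 and 1.25 CPM in naive and 1.30 and 1.46 in IL-4BacTg TH2 libraries, against 2.95 and 2.63 in TFH and 3.46 in IL-4BacTg x OTII TH2 libraries. In the TFH2 library it was 1.56 CPM, close to naive library 1 and resting on 20 counts.

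Genes that carry or build the receptor were called in both directions, as genes were in general. Of 10 genes of the receptor complex and its coreceptors, 4 were higher in IL-4BacTg TH2 than in naive cells (Cd28, Cd3d, Cd3g and Trat1) and 5 lower (Cd3e, Cd4, Cd5, Cd6 and Ptprc), beside 33.9% and 31.9% of all genes. In OTII against naive cells 6 were higher (Cd247, Cd28, Cd3d, Cd3g, Cd4 and Ptprc) and 3 lower (Cd5, Cd6 and Trat1), beside 33.1% and 36.1% of all genes, and against libraries labelled without OTII 6 were higher and 2 lower, beside 29.4% and 31.5%. Cd3g, a signalling subunit, stood at 317 CPM ± 1.37 in naive, 674 ± 116 in IL-4BacTg TH2 and 662 ± 203 in OTII libraries, a log2 difference of 1.09 and 1.13 from naive cells, far below the gain of Trac. Of 8 tested genes of receptor gene recombination, 2 were higher and 3 lower in IL-4BacTg TH2, and 3 were higher and 2 lower in OTII cells, both against naive cells, which is near the same shares of all genes. Dntt, the polymerase that adds bases at joints, stood at 7.65 CPM ± 0.675 in naive cells, 0.128 ± 0.0486 in IL-4BacTg TH2 and 0.187 ± 0.244 in OTII cells (log2 -5.83 ± 0.39, edgeR adjusted p = 1.28e-07, and -5.65 ± 0.32, edgeR adjusted p = 4.14e-08).

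QuantSeq compared the constant genes among cells that all carry OTII. Trbc1 was higher in TFH than in TH2 cells. It stood at 275, 289, 253 and 203 CPM in the 4 TH2 libraries and at 309 to 782 CPM (median 545) in the 8 TFH libraries of all gates. No TFH library was as low as any TH2 library, and the log2 difference was 1.10 ± 0.24 (edgeR adjusted p = 5.77e-04). Trbc2 stood at 3779, 3382, 3809 and 2829 CPM in TH2 and 4191 to 6675 CPM (median 5698) in TFH libraries, again without overlap (0.71 ± 0.13, edgeR adjusted p = 4.31e-05). Trac was at 1450, 1282, 747 and 722 CPM in TH2 and 1180 CPM ± 204 (n = 8) in TFH libraries and did not pass the test (0.16 ± 0.18, edgeR adjusted p = 0.764). In RNA-seq, Trbc1 stood at 1105 and 1081 CPM in TFH libraries and at 1101 in the single IL-4BacTg x OTII TH2 library. Trbc2 was lower in TFH there, at 1717 and 1673 against 1965 CPM. Of the 5 C segments tested in QuantSeq 2 were called higher, beside 2.42% of all genes, and none lower, beside 2.75% of all genes.

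TFH2 cells, which share the TH2 libraries as reference, gave like values. Trbc1 stood at 374 to 603 CPM and Trbc2 at 3700 to 6899 CPM in the 6 TFH2 libraries. The log2 differences from TH2 were 0.92 ± 0.24 for Trbc1 (edgeR adjusted p = 0.00884), with no overlap, and 0.61 ± 0.14 for Trbc2 (edgeR adjusted p = 0.00103), where the lowest TFH2 library lay below 2 TH2 libraries. Without replicate 1 of the TFH2 CXCR5int gate, Trbc1 was at 0.78 (edgeR adjusted p = 0.06175). The single RNA-seq libraries ran the other way. Trbc1 stood at 823 CPM in the TFH2 CXCR5hi library and 1101 in the IL-4BacTg x OTII TH2 library, and Trbc2 at 1410 and 1965 CPM. Trdc, the delta constant gene (chr14:54142851-54148868), stood at 91.8, 88.2, 65.3 and 24.9 CPM in TH2, 7.39 to 85.2 (median 21.3) in TFH and 0 to 40.5 CPM in TFH2 libraries. It was lower in TFH2 than in TH2 cells (-2.45 ± 0.72, edgeR adjusted p = 0.0254), although the groups overlap, and not called in TFH (-1.37 ± 0.66, edgeR adjusted p = 0.239). The Trdc call was lost with only the groups compared in the fit (adjusted p = 0.0621) and without any of 5 single libraries: TH2 replicates 1 and 2, CXCR5hi replicate 1, CXCR5int replicate 1 and CXCR5lo replicate 2 of TFH2 (adjusted p up to 0.118). Without CXCR5int replicate 2 the difference was -4.80. In TFH2 against TH2, 2 C segments were thus higher (2.03% of all genes) and 1 lower (2.32% of all genes).

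Markers of other cells moved in these comparisons as well. The 7 B cell markers summed to 60.6 to 148 CPM in TH2, 153 to 289 in TFH and 199 to 880 in TFH2 libraries, the 7 myeloid markers to 0 to 7.18, 56.6 to 181 and 186 to 884, and the 5 erythroid markers to 0 to 39.6, 39.5 to 340 and 413 to 1590. The 6 CD4 T cell markers summed to 1920 to 2209 CPM in TH2, 2361 to 3508 in TFH and 2426 to 2964 in TFH2 libraries, so T cell genes other than Trbc1 and Trbc2 stood higher too. Of the 10 genes of the receptor complex, 6 were higher in TFH than in TH2 cells (Cd247, Cd28, Cd3g, Cd4, Cd5 and Ptprc), beside 2.42% of all genes. In TFH2 cells 4 were higher (Cd247, Cd28, Cd4 and Ptprc), beside 2.03% of all genes. Trat1, a receptor-associated adaptor, was lower in both, at 8.48 and 8.87 CPM against 116 in TH2 cells, beside 2.75% and 2.32% of all genes that were lower. None of 6 tested recombination genes was called in either comparison by edgeR. The part of other cells in the constant gene results was not tested.

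**Figure D5:**
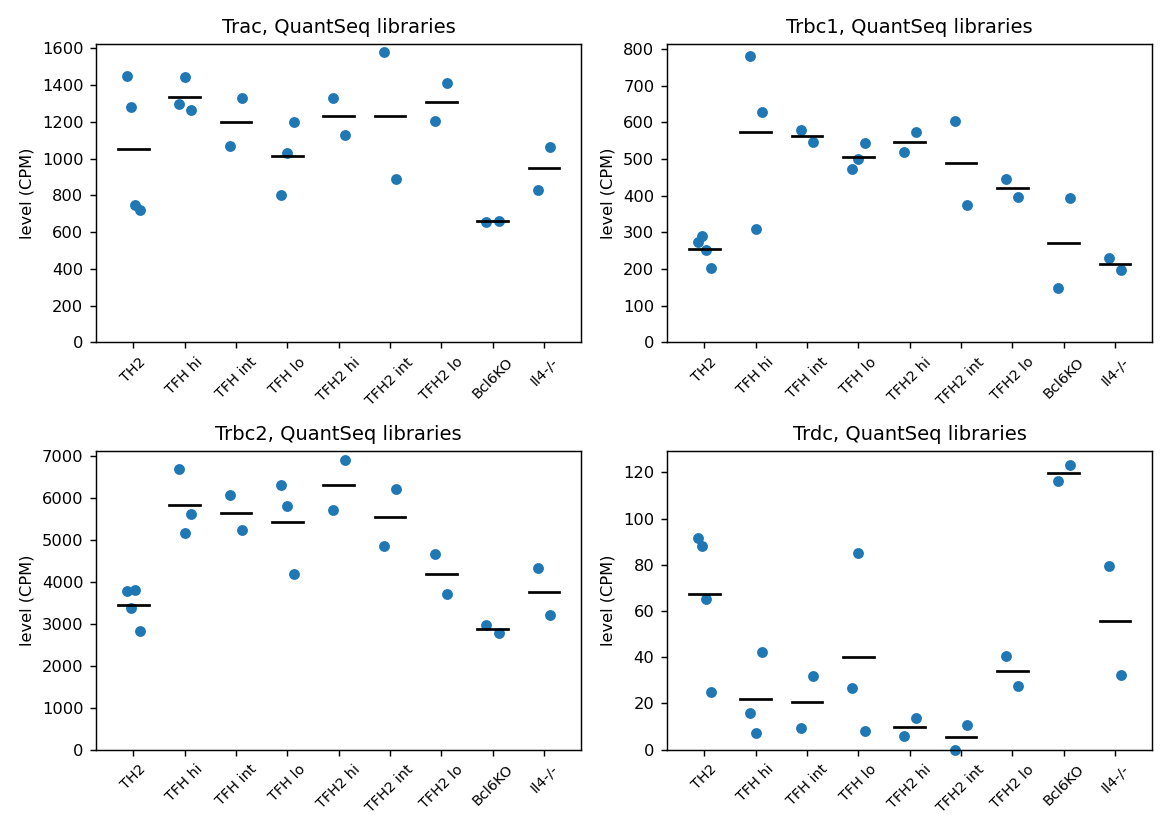
Level of Trac, Trbc1, Trbc2 and Trdc in the 22 QuantSeq libraries, in CPM, 1 point per library in 9 groups, with a line at each group's mean. Trbc1 and Trbc2 points of the TFH gates lie above the 4 TH2 points, Trac points of the groups overlap, and Trdc has no count in 1 TFH2 CXCR5int library.

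The choice between the beta constant genes passed no test. The Trbc1 share of Trbc1 and Trbc2 counts was 6.23 to 7.87% in TH2, 5.65 to 11.5% in TFH and 5.67 to 11.0% in TFH2 libraries. TFH was 1.96 points above TH2 (exact permutation p = 0.0808, adjusted over 3 tests 0.214), TFH2 was 1.63 points above TH2 (exact permutation p = 0.143, adjusted 0.214), and TFH2 minus TFH was -0.33 (exact permutation p = 0.743). QuantSeq reads only 3' ends, and the RNA-seq shares of 35.9 to 41.9% are not comparable with these. Gates of a mouse may share an animal, so the 8 and 6 libraries may not be independent.

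No C segment was called in the 5 other QuantSeq comparisons, by edgeR or by DESeq2. The common biological coefficient of variation was 1.26 in QuantSeq and 0.0879 in RNA-seq, so a missing call in QuantSeq does not show equal levels. In TFH2 against TFH cells 0.327% of all genes were higher and 0.32% lower, and no C segment had an unadjusted edgeR p under 0.05. Trbc2 was at -0.10 ± 0.11 and Trbc1 at -0.18 ± 0.20 there. Between CXCR5hi and CXCR5lo, 0.0278% of genes were higher and 0.111% lower in TFH, with no C segment at an unadjusted p under 0.05. In TFH2 0.0487% were higher and 0.104% lower, and Trbc2 alone had an unadjusted p under 0.05, at 5703 and 6899 CPM in CXCR5hi against 4653 and 3700 in CXCR5lo cells (0.59 ± 0.21, edgeR adjusted p = 0.675). The gate difference of Trbc2 was not shown to differ between TFH2 and TFH by the interaction term (0.49 ± 0.27, edgeR adjusted p = 0.921).

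Bcl6KO cells, which lack a transcriptional repressor that follicular helper cells require, had Trac at 656 and 663 CPM, Trbc1 at 150 and 393, Trbc2 at 2965 and 2772 and Trdc at 116 and 123 CPM. Both Trac values lie below, and both Trdc values above, those of the 4 TH2 libraries, and neither passed the test (Trac -0.67 ± 0.26, edgeR adjusted p = 0.823, Trdc 0.82 ± 0.94, edgeR adjusted p = 1). Here 0.0139% of all genes were higher and 0.00695% lower, and 2 C segments, Trac and Trgc4, had an unadjusted p under 0.05. Il4-/- cells, sorted through the wider CD4+ gate, had Trac at 832 and 1064 CPM, Trbc1 at 230 and 197, Trbc2 at 4313 and 3215 and Trdc at 79.4 and 32.4 CPM. Trac and Trdc lie within the TH2 range, and for Trbc1 and Trbc2 1 of the 2 libraries lies outside it. Here 0.00695% of all genes were higher and 0.0626% lower, and no C segment had an unadjusted p under 0.05.

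The gamma constant genes were nearly silent in QuantSeq. Trgc3 had no count in any of 22 libraries, Trgc1 had 21 counts in Il4-/- library 1 and 3 in 1 TFH2 CXCR5lo library, and Trgc2 had 7 and 1 counts in 2 libraries. Trgc4 had 68 counts in TFH2 CXCR5lo library 1, 61 in Bcl6KO library 1, 9 in Il4-/- library 2 and 0 in the other 19. The 4 QuantSeq TH2 libraries, the 8 TFH libraries and the 4 TFH2 libraries of the CXCR5hi and CXCR5int gates had no count of any Trgc gene, at a depth at which 0 allows up to 3 counts per gene and library. By total counts alone, the Trgc2 level of the RNA-seq IL-4BacTg TH2 and TFH2 libraries would be 48.3 to 198 counts in a QuantSeq library. Assay and, for TH2 cells, genotype differ between RNA-seq and QuantSeq and cannot be told apart.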

How the data were processed

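CD4 T cells from mouse spleen were profiled in 8 RNA-seq and 22 QuantSeq libraries, from 10 ng of RNA each. The deposited values are whole counts, per transcript in RNA-seq and per gene in QuantSeq. Per the submitters' processing notes, the tools included STAR 2.7.0c, Bowtie 0.12.2 and featureCounts 1.6.0, and the builds were GRCm38.p6, mm10 and mm9; which made which file, how reads matching several genes were counted and whether strand was used are not given in the sources used here. GENCODE M21 named 82946 of 95883 transcripts, and the unnamed ones held 14.66% of counts and were left out. RefSeq synonyms named Trgv and Trgc genes. A gene is its transcript of highest total count. Tests used edgeR 4.0.16 in R 4.3.3 (TMM, filterByExpr with minimum count 10 and total 15, quasi-likelihood, adjustment over all genes, call under 0.05; 5 RNA-seq groups with 3 residual degrees of freedom, 9 QuantSeq groups with 13) and exact 2-sided permutation tests in scipy 1.17.1. Checked on simulated data, the RNA-seq fit recovered most changes that were put in and the QuantSeq fit few, with few false calls in either, so QuantSeq can miss large changes. CPM divides by the TMM-scaled total of the tested genes. DESeq2 1.42.0, summed transcripts, other filters, scalings and left-out libraries were the alternatives. Named are all C segments, Trav14, Trbv12, the 8 Trav and 8 Trbv of highest share per label group, Trav1, Trav11, Trav11d, Trgv and Trdv with 10 counts, and context genes a result turns on. The segments and gene lists were chosen with earlier results of these data known. One gene of a marker list is not reported here.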

Additional observations from a re-analysis of the deposited data

Results flagged for a closer look

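In 3 of 19 sets of values examined, each 1 measure in 1 group of libraries, 1 library stood apart by its gap to the nearest other. Chance gives such a gap in about 1 of 20 sets of replicate libraries. That rate does not apply to these 3, which are RNA-seq label groups that mix cell types. The TFH2 library is the only TFH2 library of the OTII group, so it is not an outlying replicate. The sets are not independent, since the Vβ5 share and the effective number of Trbv segments come from the same Trbv counts. Among the 4 OTII libraries the TFH2 library had the lowest Vβ5 share of Trbv counts (68.8%, the others 77.8 to 79.3%) and the highest effective number of Trbv segments (2.048, the others 1.6 to 1.65). Its Trbv26 share of 13.1%, against 6.34 to 6.88% in the others, stands beside both values. Among the 4 libraries labelled without OTII, IL-4BacTg TH2 library 2 had the lowest summed Trbv level, 8.359 in log2 CPM against 8.57 to 8.61.

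QuantSeq reads the 3' ends of transcripts and its V counts entered no comparison. Over the 22 libraries, all labelled OTII, Trav14 nevertheless took 48.21% of Trav counts, 1559 of 3234. Of these, 690 were Trav14d-1 and 589 Trav14n-1, which the RNA-seq files do not list, and Trav14-3 had 0. The QuantSeq share thus covers copies that the RNA-seq share leaves out and is not comparable with it. By group the share ran from 32.2% in TFH2 CXCR5hi (58 of 180 counts) to 63.3% in TFH2 CXCR5lo cells (285 of 450), and it was 55.9% in TH2 cells (Wilson interval 50.2 to 61.4%). Trbv12-2 took 361 of 716 Trbv counts, from 0 of 62 in Bcl6KO to 131 of 132 in TFH CXCR5int cells.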

How the results depend on the processing

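Across alternatives, 306 values of whole comparisons kept their direction and side of the threshold, 10 moved, 6 reversed and 1 passed the threshold anew, and for single genes 564 kept both, 54 lost the call and 5 reversed. With plain library sizes the OTII minus unlabelled difference in summed Trbv was 0.03684, and leaving out each library gave -0.08051 to 0.01554. The Trbc1 share of TFH minus TH2 was 1.587 to 2.42 with each library left out, the highest without CXCR5hi TFH replicate 2 (adjusted exact permutation p = 0.0364), and that of TFH2 minus TFH -0.8321 to 0.241, above 0 without TFH2 CXCR5int replicate 2 or TFH CXCR5lo replicate 3. With 2 groups only, 0 segments were higher and 0 lower in OTII libraries (edgeR, 95 tested, 11 at an unadjusted p under 0.05), since the group labelled without OTII then holds naive and TH2 libraries as replicates. In that fit Trav14d-3-dv8 was at -0.0091, Trav14n-3 at -0.070 and Trbv26 at -0.32. Leaving out each library gave 14 to 31 higher segments, 31 without the TFH2 library, beside 24 to 32.3% of all genes. It gave 34 to 51 lower segments, beside 28.1 to 34.2% of all genes. Trav9-4 was at -0.538 to 0.249, above 0 without the TFH2 library. DESeq2 called 12 higher (23.4% of all genes) and 37 lower (27% of all genes). Without the IL-4BacTg TH2 libraries in the contrast 18 were higher (33.1% of all genes) and 64 lower (36.1% of all genes). Trdv2-2 was at -0.26 there. For TFH2 against TH2 with a library left out, 1 to 2 C segments were higher, beside 1.61 to 1.96% of all genes. In the same fits 0 to 1 were lower, beside 1.54 to 2.42% of all genes. With only the groups compared 0 were lower, beside 2.87% of all genes. With a library left out, the Trav14 share difference was 25.3 to 52.8 points and that of Vβ5 25.5 to 46.0. IL-4BacTg TH2 against naive gave 16 higher (28.7% of all genes) and 53 lower (25.6% of all genes) by DESeq2. No paired analysis was possible because the labels give no replicate numbers. RNA-seq groups of 1 library borrow their spread from the others, QuantSeq depth limits genes of few counts, and the causes of these moves were not tested.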
